A study of Mus musculus with 4 samples.

Results

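The genes described here are 36 members of the p53 network and of the cell death machinery, out of 38124 gene IDs counted in each library. They were taken by symbol, and all 36 were found. They comprise p53 with its regulators (3 genes), p53 targets of growth, metabolism and stress (8), the Bcl2 family (9), the caspases with the apoptosome and the inhibitors of apoptosis (9), and death receptors with their adaptors and the necroptosis kinases (7). Of these, 34 had at least 20 counts in at least 2 libraries and were tested. Fas and Phlda3 did not, and were tested only in a fit with no filter on low counts.

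The RNA came from intestinal epithelial cells of male C57BL/6 mice aged 71 weeks, sorted by GFP. GFP-high cells are labelled intestinal stem cells and GFP-low cells progenitors. The diet was high in fat (HFD) for some mice and a control diet, labelled normal, for the rest. In their titles the control libraries are marked WT and the others HFD. Poly(A) RNA of 200000 sorted cells, pooled from 2 to 5 mice, made up each library, and there was 1 library for each of HFD GFP-high, control GFP-high, HFD GFP-low and control GFP-low. Each group is thus a single library without a replicate. Whether the GFP-high and GFP-low pools of 1 diet shared mice is not stated, and the gene that drives GFP is not named in the sources used here. The question of the series is how dietary fat acts on intestinal stem cells and progenitors.

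In background, the transcription factor p53 is held low by the ubiquitin ligase Mdm2 and the related Mdm4, and after DNA damage it switches on genes of arrest, repair and death. The Bcl2 family controls release of cytochrome c from mitochondria: Bax and Bak1 open the outer membrane, Bcl2, Bcl2l1 and Mcl1 prevent this, and BH3-only proteins such as Bbc3 (PUMA), Bcl2l11 (BIM), Bid and Pmaip1 (NOXA) tip the balance. Cytochrome c then assembles Apaf1 and Casp9 into the apoptosome, while death receptors act through Fadd and Casp8, and Ripk3 with Mlkl runs the necroptotic branch. Crypt base stem cells are known to be sensitive to radiation, with p53 and PUMA as mediators of their death.

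Total counts were 6207080 (HFD GFP-high), 5201394 (control GFP-high), 5327015 (HFD GFP-low) and 4677389 (control GFP-low), and the 36 genes held between 7666 and 9623 of them per library. A gene with no count could still lie at up to 0.483 to 0.641 CPM (counts per 1000000), from an upper limit of 3 counts; limits and intervals here cover counting error only. The sort was checked against cell type markers: all 8 stem cell markers, Lgr5 and Olfm4 among them, were higher in GFP-high cells by edgeR, and all 12 enterocyte, 8 goblet and 8 enteroendocrine markers were lower. Summed stem cell markers reached 9172 CPM under HFD and 10190 under control in GFP-high cells, against 1393 under HFD and 1915 under control in GFP-low cells. Summed enterocyte markers reached 1367 CPM under HFD and 936 under control in GFP-high cells, against 7689 under HFD and 3148 under control in GFP-low cells. Summed goblet markers reached 3203 CPM under HFD and 3616 under control in GFP-high cells, against 17900 under HFD and 40750 under control in GFP-low cells. Of the 8 Paneth markers 7 were lower in GFP-high cells. Of the 8 proliferation markers 6 were higher in GFP-high cells and none was called lower (0 at an unadjusted p under 0.05, DESeq2 0). The 14 leukocyte markers summed to between 16.9 and 42.5 CPM in each library, with Ptprc and Csf1r at 0 counts in all. Of the 2 that were tested Itgam, at 10.1 to 29.7 CPM, was 2.35-fold lower in GFP-high cells (edgeR adjusted p = 0.000563), and Itgae was not called. The 10 stroma and vessel markers summed to between 2.74 and 27.0 CPM, with Col1a1 and Cdh5 at 0 in all. Vim, the 1 that was tested, had 1.28 to 25.7 CPM and was 12.0-fold lower in GFP-high cells (edgeR adjusted p = 1.84e-05). The 10 genes of the dissociation stress list summed to 196 CPM under HFD and 214 under control in GFP-high cells, against 121 under HFD and 145 under control in GFP-low cells. By edgeR 1 of its 6 tested genes, Jun, was higher in GFP-high cells (6.53-fold) and 2, Fos and Junb, were lower. These cell type, proliferation and stress markers move with every fraction difference below, and their part in the results was not tested. In sorted bulk RNA, fewer cells of a type and less RNA per cell cannot be told apart.

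Levels between genes were compared per length, in TPM, which scales each library to the same total after division by length, from the counts and the exonic length of each gene. Bak1 stood highest, with 151 TPM under HFD and 175 under control in GFP-high cells and 253 under HFD and 295 under control in GFP-low cells. Of its exonic bases 25.5% overlap exons of Ggnbp1 on the opposite strand, and the strand setting of the counting is not given in the sources used here. Trp53 itself came second by its mean, with 143 TPM under HFD and 146 under control in GFP-high cells and 71.9 under HFD and 70.7 under control in GFP-low cells. Mcl1 had between 102 and 114 TPM in the 4 libraries and the p53 target Ccng1 (cyclin G1) between 72.1 and 91.4, and these ranges do not overlap, while that of Trp53 spans both. Casp8, the initiator caspase of death receptors, had 47.5 to 56.6 TPM, and the necroptosis kinase Ripk3 32.2 to 39.3 TPM.

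**Figure D1:**
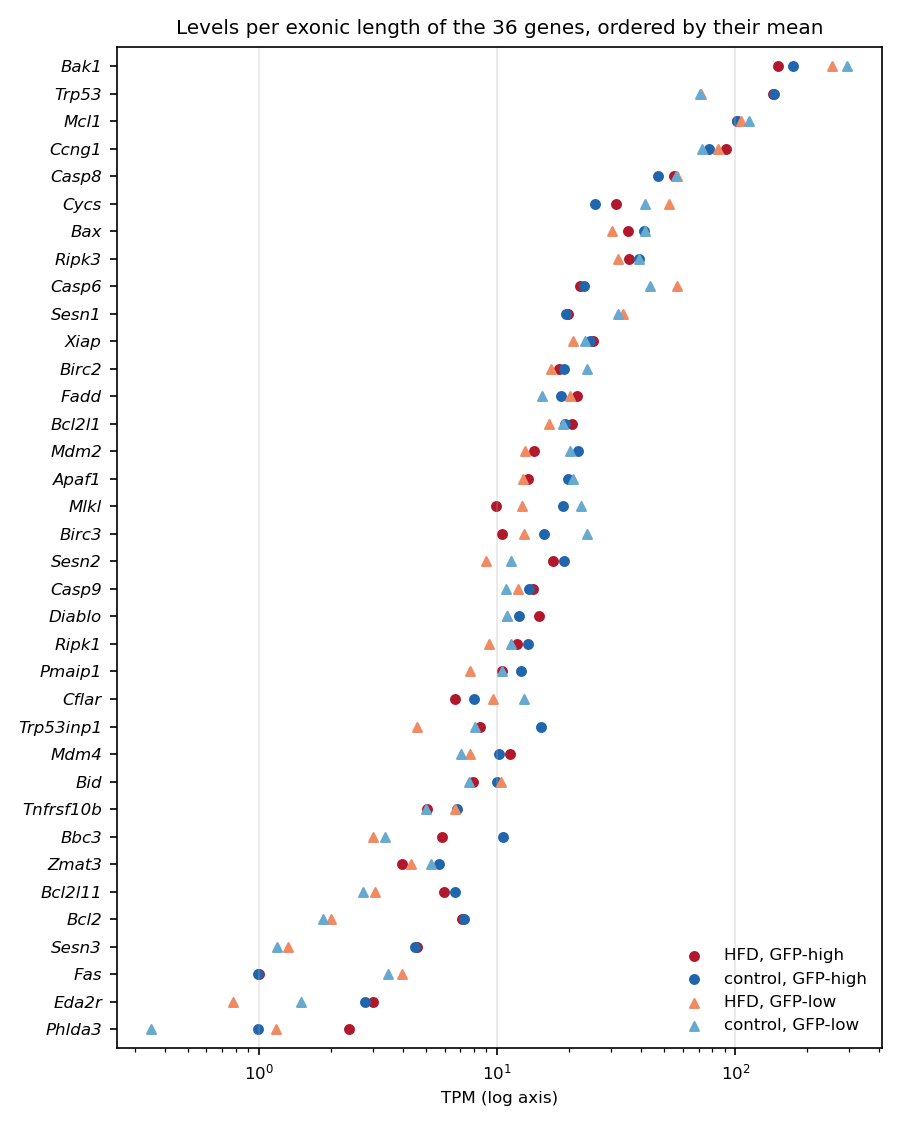
Levels per exonic length, in TPM on a log axis, of the 36 genes in each of the 4 libraries, ordered by their mean (circles, GFP-high; triangles, GFP-low). Bak1, Trp53, Mcl1 and Ccng1 stand at the top, and Phlda3, Eda2r and Fas at the bottom.

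At the low end the anti-apoptotic Bcl2 had 7.12 TPM under HFD and 7.25 under control in GFP-high cells, against 1.99 under HFD and 1.86 under control in GFP-low cells, far below Mcl1 in each library. The effector Bax had 30.4 to 41.8 TPM and the anti-apoptotic Bcl2l1 16.4 to 20.5. The sensor Apaf1 had 12.8 to 20.9 TPM and its partner Casp9 10.9 to 14.1, and these ranges overlap. The TNF receptor family member Eda2r, a p53 target, had 0.774 to 3.01 TPM. Exonic length was taken over all annotated transcripts, which understates genes with rarely used long ends such as Mdm4 (14798 exonic bases) and Sesn3 (15269).

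The promoters of the members were searched for the p53 consensus, which joins a pair of decamers. Both cores had to be intact, the gap was at most 13 bases, and at most 3 mismatches were allowed over the other positions; the consensus reads the same on both strands. RefSeq promoters (GRCm38.p6, 250 bases before to 50 after a start site) were held for 32 of the 36 genes, at 43 start sites. A match lay in 6 of the 43 (14%), those of Trp53, Mdm4, Sesn1, Bax, Bbc3 and Birc2, against 2207 of all 32851 promoters in the table (6.72%). The sequences below are those of Trp53 and Mdm2, the members of the core loop that passed a test, and of the targets Sesn1, Bax and Bbc3, chosen after the matches were seen; capitals mark every match, and each is written in the direction of its gene.
Trp53 (chr11:69580109-69580408, plus strand): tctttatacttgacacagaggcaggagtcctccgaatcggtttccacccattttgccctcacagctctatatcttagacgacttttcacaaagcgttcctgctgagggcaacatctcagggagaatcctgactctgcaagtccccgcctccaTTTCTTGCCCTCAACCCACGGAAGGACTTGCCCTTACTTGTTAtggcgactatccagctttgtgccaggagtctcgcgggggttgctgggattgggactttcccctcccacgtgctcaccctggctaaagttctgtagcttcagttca
Mdm2 (chr10:117710709-117711008, minus strand): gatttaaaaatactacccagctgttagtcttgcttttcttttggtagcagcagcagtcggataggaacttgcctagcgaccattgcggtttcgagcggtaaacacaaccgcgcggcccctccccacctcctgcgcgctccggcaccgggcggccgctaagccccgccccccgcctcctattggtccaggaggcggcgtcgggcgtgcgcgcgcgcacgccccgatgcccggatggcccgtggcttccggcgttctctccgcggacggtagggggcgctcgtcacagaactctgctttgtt
Sesn1 (chr10:41887189-41887488, plus strand): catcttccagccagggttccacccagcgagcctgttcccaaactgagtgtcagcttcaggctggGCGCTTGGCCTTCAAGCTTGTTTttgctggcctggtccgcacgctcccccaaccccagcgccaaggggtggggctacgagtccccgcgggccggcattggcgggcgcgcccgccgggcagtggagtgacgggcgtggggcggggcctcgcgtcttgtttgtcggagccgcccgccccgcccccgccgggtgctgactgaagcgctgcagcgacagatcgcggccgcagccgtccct
Bax (chr7:45466849-45467148, minus strand): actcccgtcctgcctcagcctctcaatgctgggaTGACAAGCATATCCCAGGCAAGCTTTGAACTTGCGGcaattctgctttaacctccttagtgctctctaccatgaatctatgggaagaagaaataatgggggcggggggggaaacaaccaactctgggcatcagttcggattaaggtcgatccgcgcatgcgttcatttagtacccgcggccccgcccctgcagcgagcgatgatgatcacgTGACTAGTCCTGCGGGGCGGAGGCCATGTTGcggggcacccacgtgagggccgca
Bbc3 (chr7:16309333-16309632, plus strand): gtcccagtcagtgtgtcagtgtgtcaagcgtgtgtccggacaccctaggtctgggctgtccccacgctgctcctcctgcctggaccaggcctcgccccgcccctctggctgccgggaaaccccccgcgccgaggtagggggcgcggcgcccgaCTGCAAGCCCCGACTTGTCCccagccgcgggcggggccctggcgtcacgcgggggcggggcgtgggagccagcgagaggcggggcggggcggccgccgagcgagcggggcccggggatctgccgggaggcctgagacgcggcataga
The Bbc3 match spans positions -97 to -78, counted from the start site as 0, with no gap between its decamers and 3 mismatches. The Bax window held 3 overlapping or separate matches, of which those at -216 to -192 and -201 to -181 carried 2 mismatches each. That of Sesn1, at -186 to -164, carried 2 mismatches and a gap of 3 bases. No match was found in the Mdm2 window, which ends 50 bases after its start site. Sequence outside the windows, introns included, was not searched for Mdm2 or any other member. A match describes the sequence and does not show binding.

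The fractions were compared first, with diet as a term, by edgeR's quasi-likelihood test over 10694 genes. Stem cells had more transcripts of Trp53, Bcl2, Sesn3, Bcl2l11 and Bbc3 than progenitors, and fewer transcripts of Casp6, Bak1, Cycs, Sesn1 and Cflar. Over the tested members 8 were higher and 8 were lower in GFP-high cells, together 47.1%, against 46.2% of all genes tested (21.4% higher, 24.8% lower). Both libraries of a fraction lay beyond both of the other for 19 members (55.9%), against 68% of all genes tested. The share of members called is thus close to that of any gene, and the median log2 ratio was -0.13 over the members against 0.00 over all genes tested. DESeq2's Wald test kept 8 of the 16 calls, those of Trp53, Sesn1, Sesn3, Bak1, Bcl2, Casp6, Cycs and Cflar. Scaling by library totals moved the median of all genes by 0.187 on the log2 scale toward GFP-high; under it no called member changed direction, Mcl1 and Casp8 were no longer called and Mdm4 was.

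**Figure D2:**
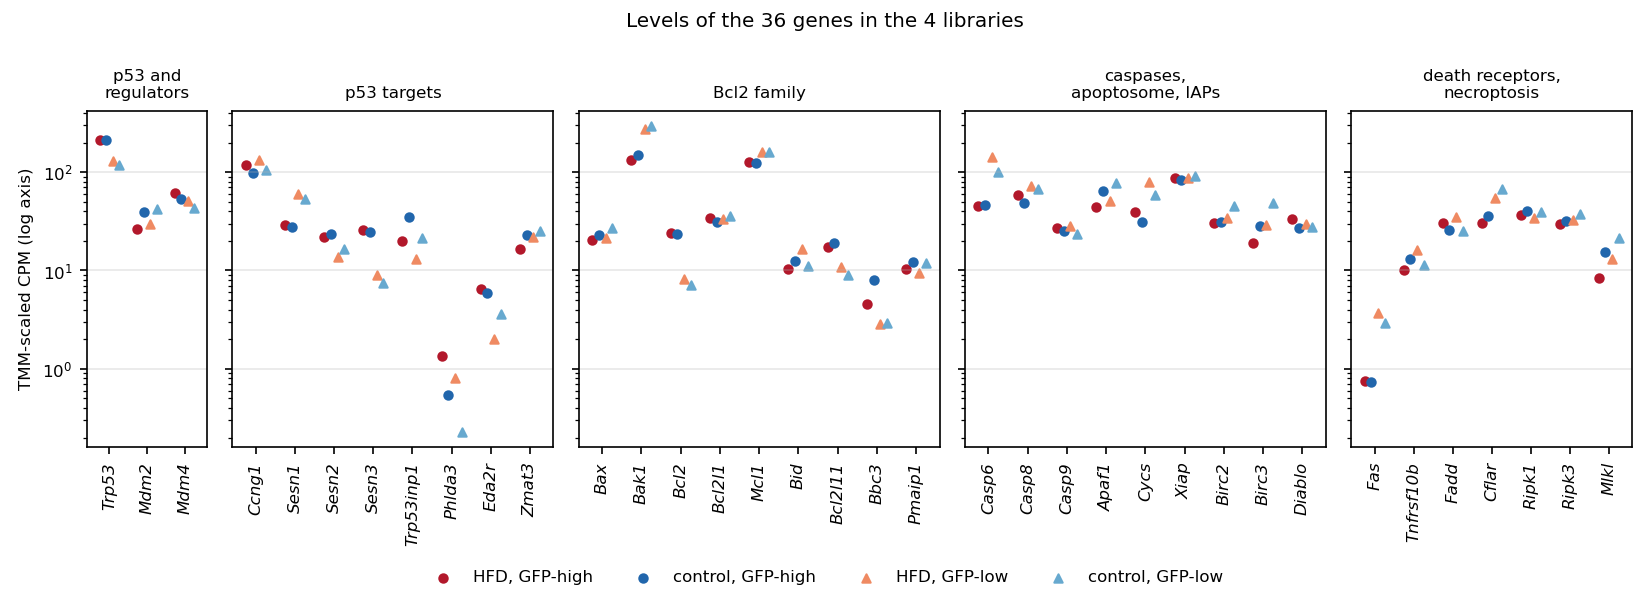
TMM-scaled CPM, on a log axis, of the 36 genes by role group in the 4 libraries (circles, GFP-high; triangles, GFP-low). Trp53, Sesn3, Bcl2, Bcl2l11 and Bbc3 have both circles above both triangles, and Bak1, Casp6, Cycs and Cflar have both below.

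Of all genes tested 21.4% were higher in GFP-high cells and 24.8% lower. Among p53 and its regulators none was called lower (0 at an unadjusted p under 0.05, DESeq2 0). Of these 3 genes 1 was higher in GFP-high cells (33.3%, DESeq2 1). This was Trp53, which had 212 CPM under HFD and 210.3 under control in GFP-high cells, against 129.5 under HFD and 118 under control in GFP-low cells (CPM here and below scaled by TMM, the trimmed mean of M values). Its transcript was 1.70-fold higher in GFP-high cells (log2 0.77 ± 0.10 SE, edgeR adjusted p = 0.000111), and the fractions did not overlap. Mdm4, a p53 inhibitor, had 61.2 CPM under HFD and 53.8 under control in GFP-high cells, against 50.3 under HFD and 42.9 under control in GFP-low cells, and did not pass (log2 0.30 ± 0.12 SE, edgeR adjusted p = 0.0594). By library totals it passed (log2 0.49, edgeR adjusted p = 0.0043), as it did with the filter of 100 counts (edgeR adjusted p = 0.0428). DESeq2 did not call it (adjusted p = 0.435). Mdm2, at once inhibitor and target of p53, showed overlapping fractions (log2 -0.13 ± 0.13 SE, edgeR adjusted p = 0.459).

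The p53 targets went both ways between the fractions: 4 of 7 tested were higher in GFP-high cells and 1 was lower (DESeq2 1 higher and 1 lower), with a median log2 ratio of 0.59. These calls are 57.1% higher and 14.3% lower, against 21.4% and 24.8% of all genes tested. The sestrins, stress proteins that restrain mTORC1, differed among themselves. Sesn3, which is also known as a target of FoxO factors, had 25.6 CPM under HFD and 24.6 under control in GFP-high cells, against 8.93 under HFD and 7.49 under control in GFP-low cells. It was 3.05-fold higher in GFP-high cells (log2 1.61 ± 0.20 SE, edgeR adjusted p = 0.000109). Sesn1 had 28.9 CPM under HFD and 27.5 under control in GFP-high cells, against 59.9 under HFD and 52.9 under control in GFP-low cells. It was thus 2.0-fold lower in GFP-high cells (log2 -1.0 ± 0.13 SE, edgeR adjusted p = 0.000126), opposite to Sesn3. Sesn2 had 21.7 CPM under HFD and 23.5 under control in GFP-high cells, against 13.8 under HFD and 16.4 under control in GFP-low cells (log2 0.59 ± 0.18 SE, edgeR adjusted p = 0.0198; DESeq2 adjusted p = 0.252).

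Trp53inp1, a nuclear and autophagy-linked p53 target, had 20.0 CPM under HFD and 35.2 under control in GFP-high cells, against 13.2 under HFD and 21.6 under control in GFP-low cells. The control GFP-low library lay just above the HFD GFP-high one, so the fractions overlap when diets are ignored (fraction log2 0.66 ± 0.16 SE, edgeR adjusted p = 0.00727; DESeq2 adjusted p = 0.153). Eda2r had 6.48 CPM under HFD and 5.84 under control in GFP-high cells, against 2.03 under HFD and 3.63 under control in GFP-low cells (log2 1.15 ± 0.38 SE, edgeR adjusted p = 0.0293; DESeq2 adjusted p = 0.246). Its ratio rests on few counts, 10 and 16 in the GFP-low libraries, and was 1.46 on the log2 scale under HFD (interval 0.66 to 2.83) and 0.62 under control (interval -0.22 to 1.65). The cyclin Ccng1, at 97.4 to 132 CPM, and the RNA-binding Zmat3, at 16.6 to 25.0 CPM, had fractions that overlapped and did not pass. Phlda3, an Akt inhibitor in p53 signalling, had 9 counts under HFD and 3 under control in GFP-high cells, against 4 under HFD and 1 under control in GFP-low cells. With no filter on low counts it did not pass (log2 0.85 ± 1.22 SE, edgeR adjusted p = 0.726).

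In the Bcl2 family 3 of 9 members were higher in GFP-high cells (33.3%, against 21.4% of all genes tested) and 2 were lower (22.2%, against 24.8%; DESeq2 1 higher and 1 lower), with a median log2 ratio of -0.07. Bcl2 had 23.8 CPM under HFD and 23.7 under control in GFP-high cells, against 8.12 under HFD and 7.04 under control in GFP-low cells. It was 3.12-fold higher in GFP-high cells (log2 1.64 ± 0.21 SE, edgeR adjusted p = 0.000123). Its ratio and that of Sesn3 differ by less than their SEs. Bak1 showed the reverse, with 133 CPM under HFD and 150.5 under control in GFP-high cells against 272 under HFD and 293 under control in GFP-low cells. This pore-forming effector was 2.0-fold lower in GFP-high cells (log2 -1.0 ± 0.09 SE, edgeR adjusted p = 1.54e-05). The other effector, Bax, had 20.3 to 27.2 CPM with overlapping fractions (log2 -0.15 ± 0.16 SE, edgeR adjusted p = 0.466).

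The BH3-only genes Bcl2l11 and Bbc3 were also higher in GFP-high cells. Bcl2l11 had 17.5 CPM under HFD and 19.0 under control in GFP-high cells, against 10.96 under HFD and 9.08 under control in GFP-low cells (log2 0.85 ± 0.22 SE, edgeR adjusted p = 0.0088; DESeq2 adjusted p = 0.119). Bbc3 had 30 counts under HFD and 44 under control in GFP-high cells, against 14 under HFD and 13 under control in GFP-low cells. Its log2 ratio was 1.07 ± 0.37 SE (edgeR adjusted p = 0.034; DESeq2 adjusted p = 0.293), and it was 0.59 under HFD (interval -0.29 to 1.70) and 1.30 under control (interval 0.52 to 2.46). Mcl1, a short-lived anti-apoptotic protein, had 127 CPM under HFD and 124 under control in GFP-high cells, against 161 under HFD and 161 under control in GFP-low cells (log2 -0.36 ± 0.10 SE, edgeR adjusted p = 0.0108; by library totals -0.17, adjusted p = 0.168; DESeq2 adjusted p = 0.183). Bcl2l1 (31.4 to 35.7 CPM over the 4 libraries), Bid (10.2 to 16.4 CPM) and Pmaip1 (9.34 to 12.2 CPM) did not pass. Their log2 ratios were -0.07 for Bcl2l1, -0.28 for Bid and 0.10 for Pmaip1. Exons of Bid overlap those of Bcl2l13 on the opposite strand over 17.7% of their bases.

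Among caspases, the apoptosome and the inhibitors of apoptosis, 4 of 9 members were lower in GFP-high cells (44.4%, against 24.8% of all genes tested) and none was called higher (0 at an unadjusted p under 0.05, DESeq2 0), with a median log2 ratio of -0.35. Casp6, an executioner caspase, had 45.4 CPM under HFD and 46.1 under control in GFP-high cells, against 141 under HFD and 101 under control in GFP-low cells. It was 2.63-fold lower in GFP-high cells (log2 -1.40 ± 0.13 SE, edgeR adjusted p = 1.66e-05), with no overlap of the fractions. Cycs, which encodes cytochrome c and has processed pseudogenes that could share its reads, had 39.3 CPM under HFD and 31.2 under control in GFP-high cells, against 80.0 under HFD and 58.8 under control in GFP-low cells (log2 -0.97 ± 0.12 SE, edgeR adjusted p = 0.000104). Birc3 (cIAP2), a ubiquitin ligase of TNF signalling, had 19.1 CPM under HFD and 28.1 under control in GFP-high cells, against 28.8 under HFD and 49.0 under control in GFP-low cells (log2 -0.71 ± 0.14 SE, edgeR adjusted p = 0.00242; DESeq2 adjusted p = 0.0704). Casp8 had 58.5 CPM under HFD and 49.1 under control in GFP-high cells, against 72.9 under HFD and 67.2 under control in GFP-low cells (log2 -0.38 ± 0.12 SE, edgeR adjusted p = 0.0195). By library totals its log2 ratio was -0.20 (adjusted p = 0.192), and DESeq2 gave an adjusted p of 0.254.

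The rest of that group did not pass between the fractions. On the log2 scale Apaf1 stood at -0.25 ± 0.12 SE (edgeR adjusted p = 0.101) and Birc2 (cIAP1) at -0.35 ± 0.14 SE (edgeR adjusted p = 0.0682). Casp9 (23.4 to 28.2 CPM), Xiap (82.4 to 91.0 CPM), the direct caspase inhibitor, and Diablo (27.2 to 33.8 CPM), the mitochondrial antagonist of such inhibitors, lay between -0.08 and 0.07. Of the exonic bases of Diablo 40.9% overlap other genes, so its counts are uncertain.

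In the death receptor and necroptosis group 1 of 6 tested members was lower in GFP-high cells (16.7%, against 24.8% of all genes tested) and none was called higher (0 at an unadjusted p under 0.05, DESeq2 1 lower and 0 higher), with a median log2 ratio of -0.21. This was Cflar (c-FLIP), which holds back Casp8, with 30.7 CPM under HFD and 35.9 under control in GFP-high cells, against 54.2 under HFD and 67.7 under control in GFP-low cells. It was 1.82-fold lower in GFP-high cells (log2 -0.87 ± 0.12 SE, edgeR adjusted p = 0.000256), and the fractions did not overlap. Fas, the receptor of Fas ligand, had 5 counts under HFD and 4 under control in GFP-high cells, against 18 under HFD and 13 under control in GFP-low cells. Its log2 ratio was -1.73 under HFD (interval -4.06 to -0.80) and -1.49 under control (interval -4.09 to -0.32). With no filter on low counts it was lower in GFP-high cells (log2 -2.13 ± 0.68 SE, edgeR adjusted p = 0.00701). Tnfrsf10b (10.1 to 16.04 CPM), the TRAIL receptor of the mouse, Fadd (25.0 to 35.1 CPM), Ripk1 (34.1 to 39.9 CPM) and Ripk3 (29.8 to 37.2 CPM) lay between -0.25 and 0.07 and did not pass. Mlkl, the pore-former of necroptosis, stood at -0.54 ± 0.21 SE (edgeR adjusted p = 0.0556).

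**Figure D3:**
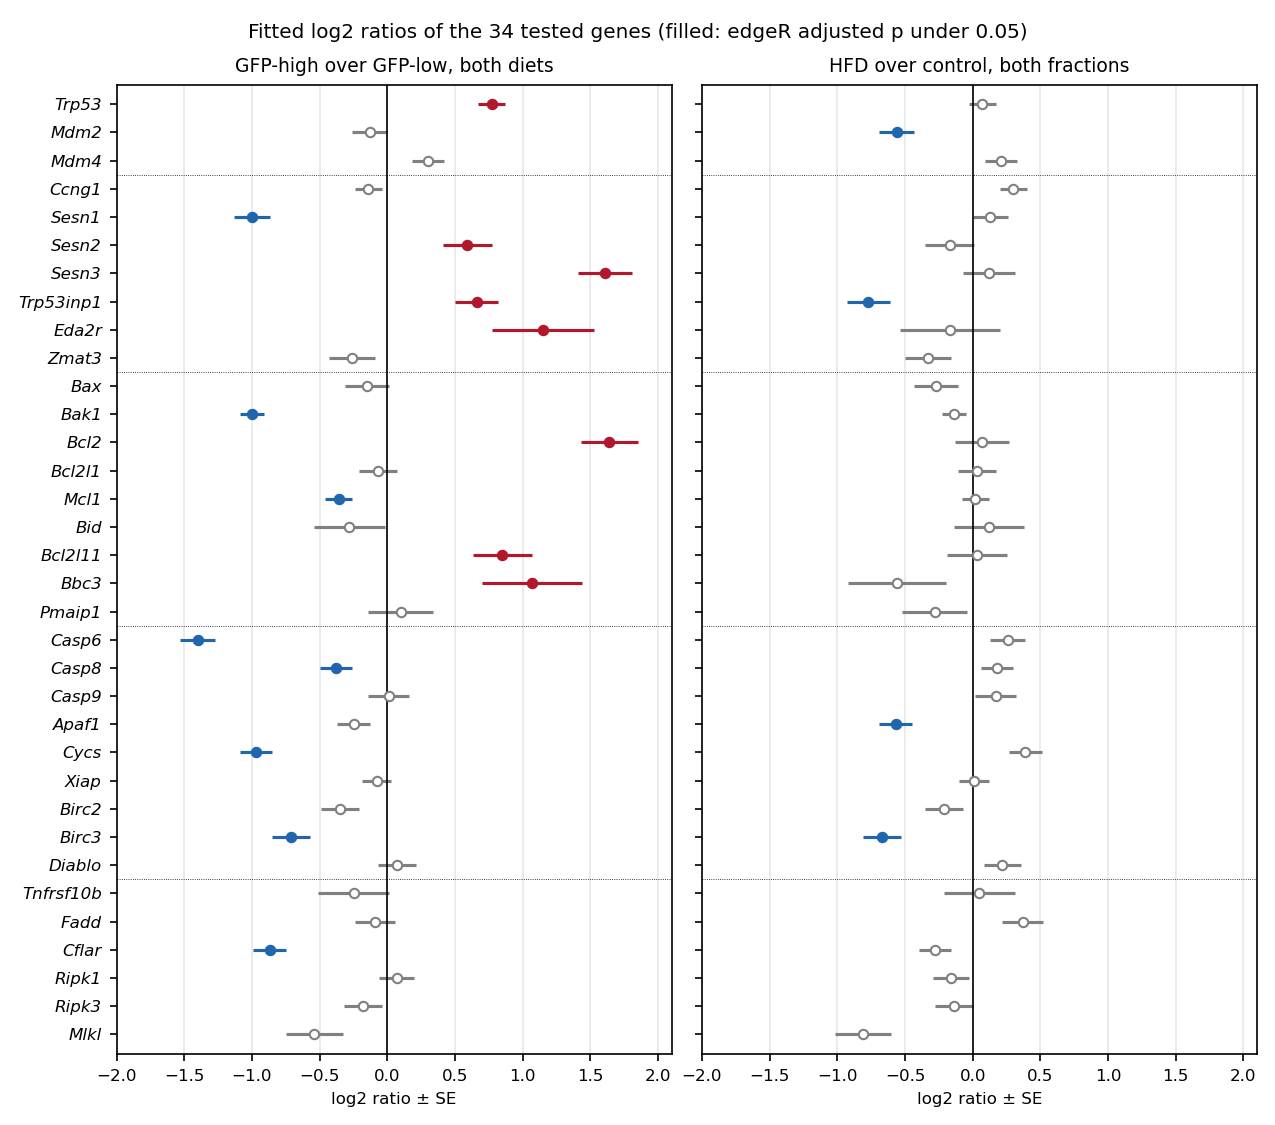
Log2 ratios with their SE of the 34 tested genes, for GFP-high over GFP-low (left) and for HFD over control (right), grouped by role; filled points passed edgeR's adjusted p of 0.05, red where higher and blue where lower. On the left 8 genes lie higher and 8 lower, and on the right the 4 filled points are Mdm2, Trp53inp1, Apaf1 and Birc3, each lower.

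The diets were compared with fraction as a term, in the same model. Under HFD 4 members fell, namely Mdm2, Trp53inp1, Apaf1 and Birc3, and none passed as higher (3 at an unadjusted p under 0.05, DESeq2 0). The members called made up 11.8%, against 5.08% of all genes tested (2.15% higher, 2.93% lower), and the median log2 ratio over the 34 tested members was 0.01, as over all genes tested. Both HFD libraries lay beyond both control libraries for 12 members (35.3%), against 22.6% of all genes tested. The 4 called genes lie at chr10:117688875-117710758 (Mdm2), chr4:11156431-11174379 (Trp53inp1), chr10:90989311-91082770 (Apaf1) and chr9:7848699-7873186 (Birc3) in GRCm38. Mdm2, Trp53inp1 and Apaf1 are known as p53 targets, and Birc3 is known as a target of NF-kappaB. DESeq2 called none of the 4 (adjusted p between 0.428 and 0.797), with log2 ratios of -0.56 for Mdm2, -0.77 for Trp53inp1, -0.57 for Apaf1 and -0.67 for Birc3. Over all 10694 genes tested DESeq2 called 187 for diet. Without fraction as a term edgeR called none of these members, but that fit called 0 of all genes tested for diet. It therefore says nothing particular to these members. The spread behind these p-values is the departure of the 4 libraries from additive diet and fraction terms, with information shared across genes. It holds no spread between replicates, as no group had any. P-values would be too small for diet if its GFP-high and GFP-low pools shared mice.

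Mdm2 had 26.4 CPM under HFD and 39.8 under control in GFP-high cells, and 29.6 under HFD and 42.5 under control in GFP-low cells. Both HFD libraries lay below both control libraries, a 1.47-fold fall (log2 -0.56 ± 0.13 SE, edgeR adjusted p = 0.0401). The log2 ratio was -0.58 in GFP-high cells (exact interval -0.89 to -0.30) and -0.51 in GFP-low cells (interval -0.84 to -0.20). Trp53inp1, with the CPM values given above, fell 1.71-fold under HFD (log2 -0.77 ± 0.16 SE, edgeR adjusted p = 0.0206). Its log2 ratio was -0.80 in GFP-high cells (interval -1.14 to -0.49) and -0.69 in GFP-low cells (interval -1.19 to -0.24).

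Apaf1 had 44.3 CPM under HFD and 64.0 under control in GFP-high cells, and 51.4 under HFD and 77.9 under control in GFP-low cells. It fell 1.48-fold (log2 -0.57 ± 0.12 SE, edgeR adjusted p = 0.0181), and the diets did not overlap. Its log2 ratio was -0.53 in GFP-high cells (interval -0.76 to -0.30) and -0.60 in GFP-low cells (interval -0.84 to -0.36). Birc3 fell 1.59-fold (log2 -0.67 ± 0.14 SE, edgeR adjusted p = 0.0244), with log2 ratios of -0.54 in GFP-high cells (interval -0.90 to -0.21) and -0.76 in GFP-low cells (interval -1.08 to -0.45). The HFD GFP-low library and the control GFP-high library were nearly level for Birc3, at 28.8 and 28.1 CPM, so its diets overlap when fractions are ignored. In each fraction the control library was higher for Birc3 as well as for Mdm2, Trp53inp1 and Apaf1. Casp9, the partner of Apaf1, had a diet log2 ratio of 0.17 ± 0.15 SE (edgeR adjusted p = 0.573).

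Mlkl had a diet log2 ratio within its SE of that of Trp53inp1 and did not pass. It had 55 counts under HFD and 85 under control in GFP-high cells, and 64 under HFD and 94 under control in GFP-low cells (log2 -0.81 ± 0.21 SE, edgeR adjusted p = 0.0569). By library totals it passed (edgeR adjusted p = 0.0408), as it did with no filter on low counts (edgeR adjusted p = 0.00509). The fit with no filter called more genes of any kind for diet, 1133 of 18918, against 543 of 10694 in the main fit. DESeq2 did not call Mlkl (adjusted p = 0.737), nor did edgeR without fraction as a term, a fit that called 0 of all genes tested for diet. Its kinase Ripk3 stood at -0.14 ± 0.14 SE for diet on the log2 scale (edgeR adjusted p = 0.616), and Ripk1, the scaffold upstream, at -0.16 ± 0.13 SE (edgeR adjusted p = 0.553).

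Markers moved with diet as well. By edgeR 6 of 8 Paneth markers and 2 of 8 each of the stem cell, goblet and enteroendocrine markers fell under HFD, and 8 of 12 enterocyte markers rose. Summed Paneth markers reached 467 CPM under HFD and 777 under control in GFP-high cells, and 1135 under HFD and 2276 under control in GFP-low cells. None of the 8 proliferation markers passed in either direction (0 at an unadjusted p under 0.05, DESeq2 0), and their summed level was 2340 CPM under HFD and 2318 under control in GFP-high cells, and 1440 under HFD and 1597 under control in GFP-low cells. Of the 6 tested dissociation stress genes 1, Hspa1b, fell under HFD (4 lower and 1 higher at an unadjusted p under 0.05, DESeq2 0), and their median diet log2 ratio was -0.55. Mitochondrially encoded mRNA took 17.1% of counts under HFD and 14.9% under control in GFP-high cells, and 16.8% under HFD and 14.1% under control in GFP-low cells. The part of these markers and of mitochondrial mRNA in the falls of Mdm2, Trp53inp1, Apaf1 and Birc3 was not tested.

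Transcripts of p53 itself and of most targets did not pass for diet. Trp53 stood at 0.07 ± 0.10 SE on the log2 scale (edgeR adjusted p = 0.759). Ccng1, a target often used as a p53 readout, had 117 CPM under HFD and 97.4 under control in GFP-high cells, and 132 under HFD and 105 under control in GFP-low cells. It ran opposite to Mdm2 without passing (log2 0.30 ± 0.10 SE, edgeR adjusted p = 0.12), and its interval left out 0 in GFP-high cells (0.11 to 0.43) and in GFP-low cells (0.16 to 0.51). Zmat3, the sestrins and Eda2r had log2 ratios between -0.33 and 0.13.

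None of the 9 Bcl2 family members was called for diet in either direction (0 at an unadjusted p under 0.05, DESeq2 0). Of all genes tested 5.08% were called for diet, a share that leaves few calls for groups of this size or smaller. Bcl2, Bcl2l1, Mcl1 and Bcl2l11 lay between 0.02 and 0.07 on the log2 scale, with SEs of 0.10 to 0.22. Bbc3 had the lowest ratio, -0.56 ± 0.36 SE (edgeR adjusted p = 0.418), from 4.52 CPM under HFD and 8.02 under control in GFP-high cells and 2.84 under HFD and 2.95 under control in GFP-low cells. In the group of caspases, the apoptosome and the inhibitors Cycs was highest, at 0.39 ± 0.12 SE (edgeR adjusted p = 0.0986). Of the 6 tested death receptor and necroptosis genes none passed (1 higher and 2 lower at an unadjusted p under 0.05, DESeq2 0), and Fadd was highest at 0.37 ± 0.15 SE (edgeR adjusted p = 0.192).

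HFD and control were also compared inside each fraction, as a single pair of libraries without a test. No member differed by 2-fold or more with 5 CPM in the higher library, in GFP-high cells (34 members and 10249 genes past 5 CPM) or in GFP-low cells (32 members and 10296 genes). Of all genes 2.33% did so in GFP-high cells (0.81% higher, 1.52% lower) and 4.23% in GFP-low cells (1.6% higher, 2.63% lower). The exact counting interval left out 0 in the same direction in both fractions for 5 members that were lower under HFD (14.7%, against 7.06% of genes tested), the 4 called genes and Mlkl. It did so for 2 that were higher (5.88%, against 6.45%), Ccng1 and Cycs.

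**Figure D4:**
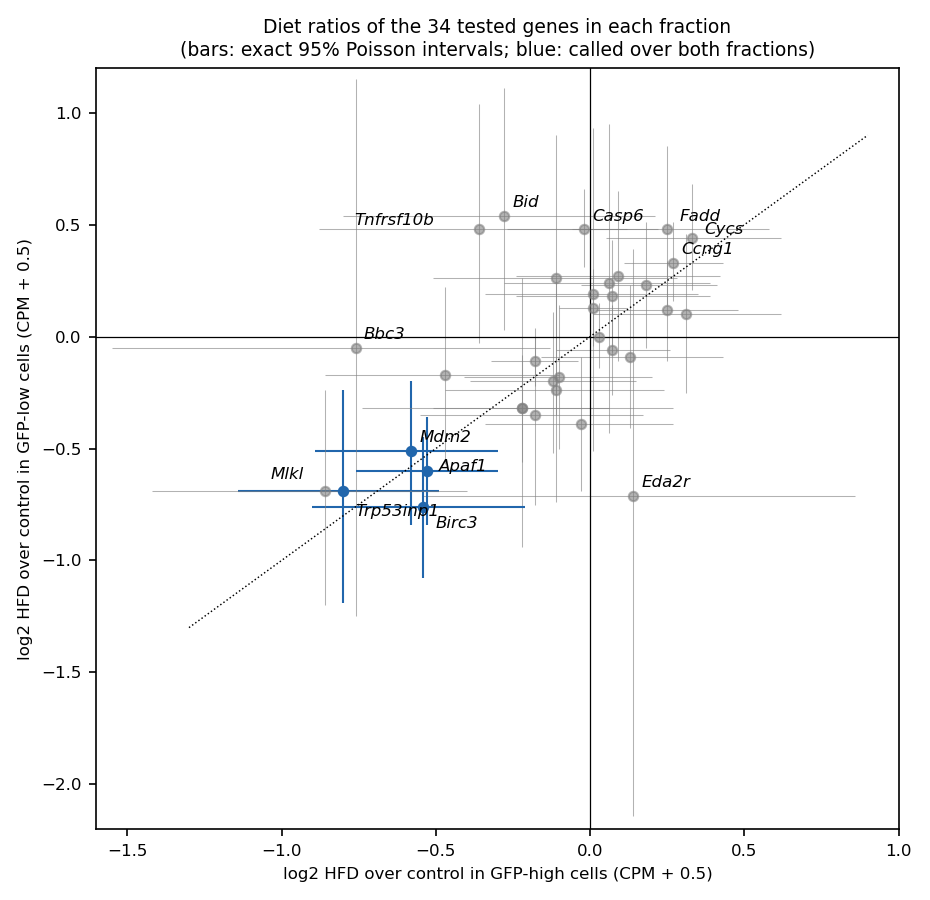
Log2 ratio of HFD over control in GFP-high cells (horizontal) and in GFP-low cells (vertical) for the 34 tested genes, on CPM with 0.5 added, with exact 95% Poisson intervals as bars, equality as the dotted line and genes called over both fractions in blue. Mdm2, Trp53inp1, Apaf1 and Birc3 lie lower in both fractions, and Bid, Tnfrsf10b and Casp6 lie above the dotted line.

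The diet ratios of Casp6, Bid, Tnfrsf10b, Bbc3 and Eda2r differed by 0.5 or more on the log2 scale between the fractions. These differences were not tested. The share of all genes that differ as much was not computed, so nothing is read from the number of such members. Casp6 had a log2 ratio of -0.02 in GFP-high cells (interval -0.27 to 0.22) and 0.48 in GFP-low cells (interval 0.31 to 0.66), which do not overlap. Bid, cut by Casp8 to reach mitochondria, had -0.28 in GFP-high cells (interval -0.80 to 0.21) and 0.54 in GFP-low cells (interval 0.03 to 1.11). Tnfrsf10b had -0.36 in GFP-high cells (interval -0.88 to 0.12) and 0.48 in GFP-low cells (interval -0.03 to 1.04). The ratio of Bbc3 was -0.76 in GFP-high cells (interval -1.55 to -0.13) and -0.05 in GFP-low cells (interval -1.25 to 1.15). Eda2r ran the other way, with 0.14 in GFP-high cells (interval -0.54 to 0.86) and -0.71 in GFP-low cells (interval -2.14 to 0.39). The intervals of Bid, Tnfrsf10b, Bbc3 and Eda2r overlap between the fractions.

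Between the fractions within a diet, 7 members passed 2-fold under HFD (21.2%, against 15.4% of genes, 6.42% higher and 9% lower) and 5 under control (14.7%, against 14.7% of genes, 5.52% higher and 9.17% lower). Sesn3, Bcl2 and Casp6 passed under both diets. Sesn1, Eda2r, Bak1 and Cycs passed under HFD and Bcl2l11 and Bbc3 under control. The log2 ratios of Sesn1 and Bak1 were -1.04 and -1.03 under HFD and -0.93 and -0.96 under control, so they lie on either side of the 2-fold limit by small amounts.

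Other genes of these pathways were taken from lists of related genes. For each count below, the shares of all genes tested were 21.4% higher and 24.8% lower in GFP-high cells. For diet they were 2.15% higher and 2.93% lower under HFD. The lists were not tested against these shares. Of 25 further p53 targets tested, 7 were higher and 6 lower in GFP-high cells (DESeq2 5 higher and 3 lower), with a median log2 ratio of -0.22 against 0.00 over all genes tested. Cdkn1a (p21), the cell cycle inhibitor and classic p53 target, had 11.2 CPM under HFD and 8.57 under control in GFP-high cells, against 67.8 under HFD and 64.5 under control in GFP-low cells. It was 6.67-fold lower in GFP-high cells (log2 -2.74 ± 0.15 SE, edgeR adjusted p = 4.57e-07), while Trp53 was higher. Tnfaip8, a death regulator, was 3.36-fold lower in GFP-high cells (edgeR adjusted p = 0.000351), Psrc1, a spindle protein, 3.14-fold higher (edgeR adjusted p = 0.000122) and Ddb2, a DNA damage sensor, 2.19-fold higher (edgeR adjusted p = 0.000334). For diet 1 of the 25 rose and none fell (6 higher and 2 lower at an unadjusted p under 0.05, DESeq2 0 in each direction). The call was Cdip1, a p53 target linked to death signalling (log2 0.48 ± 0.11 SE, edgeR adjusted p = 0.0308).

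Of 8 further Bcl2 family genes tested 2 were higher and 3 lower in GFP-high cells (DESeq2 0 higher and 2 lower), and none was called for diet (0 at an unadjusted p under 0.05, DESeq2 0). Bcl2l15 had 10 counts under HFD and 5 under control in GFP-high cells, against 128 under HFD and 100 under control in GFP-low cells (log2 -4.29 ± 0.31 SE, edgeR adjusted p = 2.39e-06). Of 15 further caspases and related genes 3 were higher and 5 lower in GFP-high cells (DESeq2 2 higher and 3 lower), and 2 fell under HFD (DESeq2 2). Casp12, a caspase grouped with the inflammatory ones, had 37 counts under HFD and 102 under control in GFP-high cells, and 4 under HFD and 22 under control in GFP-low cells. It was 4.32-fold higher in GFP-high cells (edgeR adjusted p = 0.000617) and fell 3.76-fold under HFD (log2 -1.91 ± 0.33 SE, edgeR adjusted p = 0.00745). Casp4, a caspase of the non-canonical inflammasome, had 14.8 CPM under HFD and 36.3 under control in GFP-high cells, and 10.6 under HFD and 29.5 under control in GFP-low cells, a 2.59-fold fall (log2 -1.37 ± 0.17 SE, edgeR adjusted p = 0.000955). The apoptotic caspases Casp6, Casp8 and Casp9 did not pass for diet and lay between 0.17 and 0.26.

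Of 13 further death receptor and necroptosis genes 1 was higher and 7 lower in GFP-high cells (DESeq2 1 higher and 4 lower), and 2 fell under HFD (DESeq2 0). Zbp1, a nucleic acid sensor that engages Ripk3, had 14 counts under HFD and 22 under control in GFP-high cells, and 21 under HFD and 65 under control in GFP-low cells (diet log2 -1.45 ± 0.35 SE, edgeR adjusted p = 0.0389). The other call was Tnfsf10 (TRAIL), named after its values were seen, with 567 counts under HFD and 816 under control in GFP-high cells, and 255 under HFD and 314 under control in GFP-low cells. It stood at -0.65 ± 0.12 SE for diet (edgeR adjusted p = 0.00947), while its receptor Tnfrsf10b had 0.05 ± 0.26 SE (edgeR adjusted p = 0.948).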

How the data were processed

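RNA sequencing libraries of 4 sorted pools, 1 per diet and fraction, were analysed. The authors deposited raw read counts for each gene; cutadapt, TopHat version 1.4.1 and HTSeq, with builds GRCm38 and mm10, are named in the submitters' processing notes. Their annotation release was not given in the sources used here. Of 38124 IDs 36345 matched a symbol, and no row lacked a gene ID. Exonic lengths and overlaps came from GENCODE M21 on GRCm38.

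Counts were scaled by TMM and fitted with diet and fraction as terms by edgeR version 4.0.16 in R version 4.3.3 (quasi-likelihood F-test, two-sided, Benjamini-Hochberg over 10694 genes with at least 20 counts in 2 libraries, threshold 0.05). With 4 libraries and 3 coefficients 1 residual degree of freedom remained, the diet-by-fraction term, and the biological coefficient of variation was 0.0833. SEs were computed from the fold change and F. Within a fraction or diet, ratios are of CPM plus 0.5 with exact 95% Poisson intervals. On simulated counts with 200 changed genes the fit recovered 91% of 2-fold changes by fraction (10554 genes) and 92% by diet (10565 genes), with 1.04% and 4.06% false calls. These counts were drawn at a dispersion of 0.007, against 0.00694 fitted to the data, with no diet-by-fraction difference. Changed genes differed by 2- or 4-fold, so smaller changes, such as the diet calls among the members, were not covered. Alternatives were DESeq2 version 1.42.0, other scalings and filters, and single-factor models.

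The members and lists were chosen with earlier results of these data known. All members are named; of related genes, the 3 called with the largest and the 3 with the smallest log2 ratio per effect.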

Additional observations from a re-analysis of the deposited data

How the results depend on the processing

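No called member reversed under an alternative that tested it; Eda2r and Bbc3 fall under the filter of 100 counts and were not tested there. Of 34 members tested, 16 were called between fractions (8 higher, 8 lower) and 4 for diet (0 higher, 4 lower). DESeq2's Wald test called 8 between fractions (3 higher, 5 lower) and 0 for diet, with 5 members at an unadjusted p under 0.05. Without the other factor as a term edgeR called 9 between fractions (4 higher, 5 lower) and 0 for diet, with 1 at an unadjusted p under 0.05. Under DESeq2 size factors, library totals, no filter, a filter of 100 counts and robust empirical Bayes (added after seeing the data), between 15 and 18 members were called between fractions and 4 or 5 for diet. Library totals gave 9 higher and 6 lower between fractions, and 4 members past 2-fold within HFD in place of 7. Over all genes, edgeR called 4940 between fractions, against 2390 by DESeq2 and 2794 without diet as a term, and library totals gave 3639 higher and 1931 lower in place of 2291 and 2649. For diet it called 543, against 187 by DESeq2, 1133 with no filter and 0 without fraction as a term (154 at an unadjusted p under 0.05). The cause of these differences was not tested. No paired analysis was possible because the labels give no replicate numbers that could serve as a block; with both factors as terms, fractions are compared within diets and diets within fractions. Members under about 50 counts in every library (Eda2r, Bbc3, Fas, Phlda3) are limited by depth. In GFP-low cells this holds too for Bcl2 (40 counts under HFD, 31 under control) and Sesn3 (44 and 33). Bcl2l11 (40, control), Bid (49, control) and Pmaip1 (46, HFD) were under it in 1 GFP-low library.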
